A study of Mus musculus with 4 samples.

Results

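Antisense peaks are sites of SRSF1 or SRSF2 crosslinking that fall inside a bound gene but on the DNA strand opposite to it, in RNA the authors' list does not assign to any gene. They were taken as the peaks listed as nongenic that lie wholly inside the span of a genic unit on the other strand, leaving out the mitochondrial chromosome. A genic unit is all peaks of both lists that carry the same gene or cluster name, and its span runs from its first to its last peak. The rule uses position and strand and no score. It found 151 antisense peaks for SRSF1 and 174 for SRSF2, together 325 of the 107319 peaks listed.

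CLIP-seq joins proteins to RNA with ultraviolet light, recovers 1 protein by an antibody and sequences the RNA fragments held by it. The SRSF1 library came from the SRSF1 tet-repressible line and the SRSF2 library from the SRSF2 tet-repressible line, both mouse embryonic fibroblasts (MEFs) grown without tetracycline, and both precipitations used an anti-HA antibody. There is 1 library per protein, so differences between the proteins have no replicate check, and the protein and its cell line cannot be told apart. A further 2 SRSF1 samples, treated with siRNA (control, or targeting SRSF2), were not analysed here.

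SRSF1 and SRSF2 are SR proteins, which bind short exonic and intronic elements in pre-mRNA and help the splicing machinery choose exons. Mammalian genes are often overlapped on the other strand by a second transcription unit, such as a neighbouring gene, a long noncoding RNA or a pseudogene, and many promoters start a short RNA in the reverse direction. RNA from the opposite strand of a gene has its own sequence, so a peak there marks a different RNA molecule from the one the gene encodes.

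The lists held 50983 peaks for SRSF1 and 56336 for SRSF2. Without the mitochondrial chromosome, 4022 SRSF1 peaks and 4959 SRSF2 peaks were nongenic. Most genic units have only a cluster number as name, so checks by gene symbol cover a small share of them. Of 8 fibroblast markers, 2 (Col1a1 and Postn) had a named unit with a peak, and so did 0 of 3 macrophage, 0 of 2 endothelial and 0 of 3 epithelial markers. The read depth behind the lists is unknown.

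The share of nongenic peaks opposite a bound gene was 3.75% of the nongenic SRSF1 peaks (exact 95% binomial interval 3.19 to 4.39%) and 3.51% of the nongenic SRSF2 peaks (3.01 to 4.06%), and these intervals overlap. With spans longer by 1 kb at both ends the shares were 8.93% for SRSF1 and 7.52% for SRSF2. Intervals here and below are exact binomial (Clopper-Pearson), cover counting error only and treat peaks as independent, which neighbouring peaks are not. Each of the 325 antisense peaks lay inside the span of exactly 1 unit. None of the 8981 nongenic peaks lay inside a span on its own strand, so the nongenic label was never given within the bounds of a unit read from the same strand. Per megabase of strand, antisense peaks numbered 0.519 for SRSF1 and 0.598 for SRSF2 opposite the spans, while the other nongenic peaks numbered 0.85 for SRSF1 and 1.05 for SRSF2 per megabase outside the spans. With spans longer by 1 kb at both ends the direction turned, to 1.06 for SRSF1 and 1.09 for SRSF2 opposite the spans against 0.730 for SRSF1 and 0.905 for SRSF2 outside them, a setting added after the data were seen. The density opposite bound genes relative to the rest of the genome thus depended on how spans were drawn, and the lists give a span end only as a listed peak. Lengthening also gave units with 1 peak a span with room for antisense peaks. Their part in the turn was not separated from that of the moved ends. The genome outside the spans was counted whole, on both strands. Of the antisense peaks, 58.3% of those of SRSF1 and 58.0% of those of SRSF2 were on the plus strand.

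Antisense peaks were mostly weak, as were other nongenic peaks. Each listed peak carries a whole-number score of at least 4, which the sources used here do not define and which is used only to rank peaks within a list. The median score of antisense peaks was 5 in both lists, with quartiles of 4 and 6 for SRSF1 and of 4 and 7 for SRSF2. Other nongenic peaks also had a median of 5, with quartiles of 4 and 8, in both lists. The lowest score, 4, was carried by 67 SRSF1 antisense peaks (44.4%, interval 36.3 to 52.7%) against 33.2% of other nongenic SRSF1 peaks (31.7 to 34.7%) and 5.58% of genic ones. For SRSF2, 65 antisense peaks (37.4%, 30.2 to 45.0%) had the lowest score, against 32.3% of other nongenic peaks (31.0 to 33.6%) and 3.33% of genic ones. Antisense peaks therefore sat lower than genic peaks in both lists, and lower than other nongenic peaks beyond counting error in the SRSF1 list only; the difference between the lists was not tested. A score of 10 or more was reached by 16 SRSF1 antisense peaks (10.6%, 6.18 to 16.6%) and 34 SRSF2 antisense peaks (19.5%, 13.9 to 26.2%), against 17.2% and 17.3% of the other nongenic peaks of SRSF1 and SRSF2. The sense peaks of the units opposite had median scores of 8 for SRSF1 (n = 2131) and 10 for SRSF2 (n = 2340). The median width was 20 nt for SRSF1 and 22 nt for SRSF2 antisense peaks, with a range of 7 to 69 nt and of 6 to 123 nt.

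**Figure D1:**
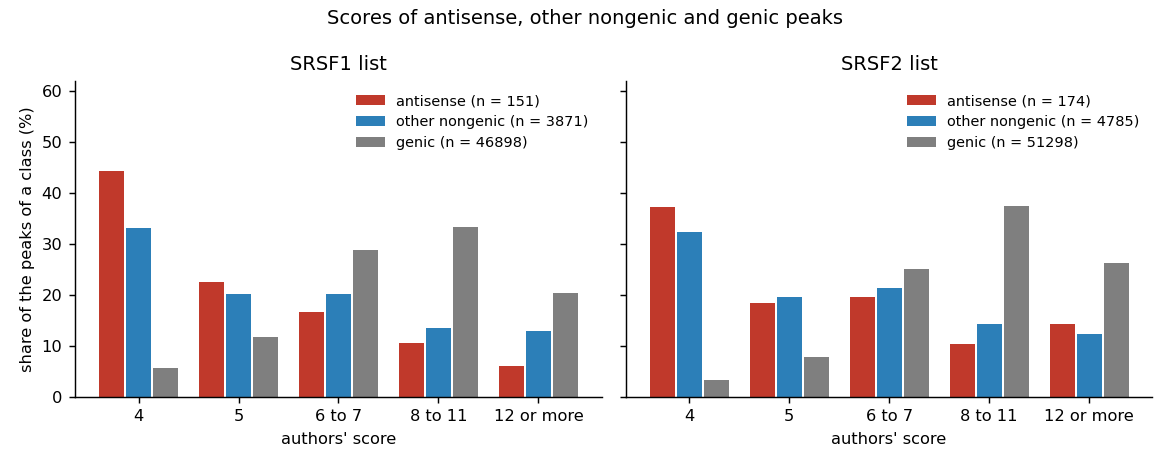
Share of peaks (%) in 5 classes of the authors' score, for antisense, other nongenic and genic peaks of SRSF1 (left) and SRSF2 (right); the bars of a class of peaks add up to the whole class. Antisense peaks pile up at score 4 (44.4% for SRSF1, 37.4% for SRSF2), where genic peaks are rare (5.58% and 3.33%). Other nongenic peaks are frequent there too (33.2% and 32.3%).

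The strongest antisense sites stood in a few units. In the SRSF2 list the highest score, 41, belonged to a peak on the plus strand of chromosome 18, opposite a unit with 29 SRSF1 and 15 SRSF2 sense peaks; an SRSF1 peak of score 12 lay at the same site. In the SRSF1 list the highest score was 34, on the plus strand at chr19:4378853-4378881 (mm9), where SRSF2 had a peak of score 36 ending 1 nt further on. The unit opposite runs on the minus strand from 4319130 to 4396959 and held 35 SRSF1 and 38 SRSF2 sense peaks, the nearest 15961 nt from the SRSF1 antisense peak. This site is therefore bound by both proteins and lies far from the sense peaks of its unit.

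Other high scores were shared as well, at varied distances from sense peaks. A plus-strand SRSF1 peak of score 25 at chr12:4394658-4394688 met an SRSF2 peak of score 13, opposite a unit running from 4249041 to 4483937. On chromosome 19, an SRSF2 peak of score 32 at chr19:18663409-18663443 covered an SRSF1 peak of score 11, inside a short unit from 18659179 to 18668373 with 4 SRSF1 and 5 SRSF2 sense peaks, the nearest 782.5 nt away. Among gene-named units the highest SRSF1 score was 17, opposite Tspan5. Not every strong site was shared. An SRSF2 peak of score 25 on the minus strand of chromosome 18 had no SRSF1 peak over it, which was the highest score among SRSF2 antisense peaks that stood alone, while the highest among SRSF1 antisense peaks alone was 9.

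Sharing between the proteins was counted as at least 1 nt in common on the same strand with any listed peak of the other protein. Of the SRSF1 antisense peaks, 47 of 151 were overlapped by an SRSF2 peak (31.1%, interval 23.8 to 39.2%), against 38.3% of other nongenic SRSF1 peaks (36.8 to 39.9%) and 38.6% of all SRSF1 peaks. Of the SRSF2 antisense peaks, 46 of 174 were overlapped by an SRSF1 peak (26.4%, 20.1 to 33.6%), against 30.7% of other nongenic SRSF2 peaks (29.4 to 32.1%) and 35.2% of all SRSF2 peaks. Against other nongenic peaks the intervals overlapped in both lists, so a difference was not detectable with these numbers of peaks. The SRSF2 value fell under the share of all peaks beyond its interval, and the SRSF1 value did not. These shares do not hold score equal, and antisense peaks scored lower than genic ones. For all 47 SRSF1 and all 46 SRSF2 peaks the partner was itself an antisense peak. By chromosome, the antisense share was lower than that of other nongenic peaks on 14 of 20 chromosomes for SRSF1 and 12 of 20 for SRSF2.

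Sharing followed score closely. At score 4, 9 of 67 SRSF1 antisense peaks (13.4%) and 5 of 65 SRSF2 antisense peaks (7.69%) were overlapped. At scores of 8 to 11, 13 of 16 SRSF1 peaks (81.3%, 54.4 to 96.0%) and 11 of 18 SRSF2 peaks (61.1%, 35.7 to 82.7%) were overlapped. At 12 or more the counts were 9 of 9 SRSF1 peaks (100%, 66.4 to 100%) and 17 of 25 SRSF2 peaks (68.0%, 46.5 to 85.1%). Strong antisense peaks of one protein thus usually coincided with a peak of the other, and weak ones seldom did. Other nongenic peaks climbed with score as well, to 80.6% for SRSF1 and 77.3% for SRSF2 at 12 or more, and the antisense intervals at 12 or more contained those values. Of all listed peaks, 17.0% for SRSF1 and 12.1% for SRSF2 were overlapped at score 4, and 42.5% and 35.0% at 8 to 11. At 12 or more the shares of all peaks were 65.6% and 58.6%. The antisense intervals contained these shares at score 4. They lay above the shares of all peaks at 8 to 11 in both lists and at 12 or more for SRSF1 only. Other nongenic peaks were overlapped at 57.5% for SRSF1 and 49.9% for SRSF2 at 8 to 11, and the antisense intervals contained both values. Antisense peaks thus did not differ detectably from other nongenic peaks there. Overlapped antisense peaks had a median score of 7 (SRSF1) and 9 (SRSF2), against 4 and 5 for those standing alone, and a median width of 24 and 28.5 nt against 19 nt in both lists.

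**Figure D2:**
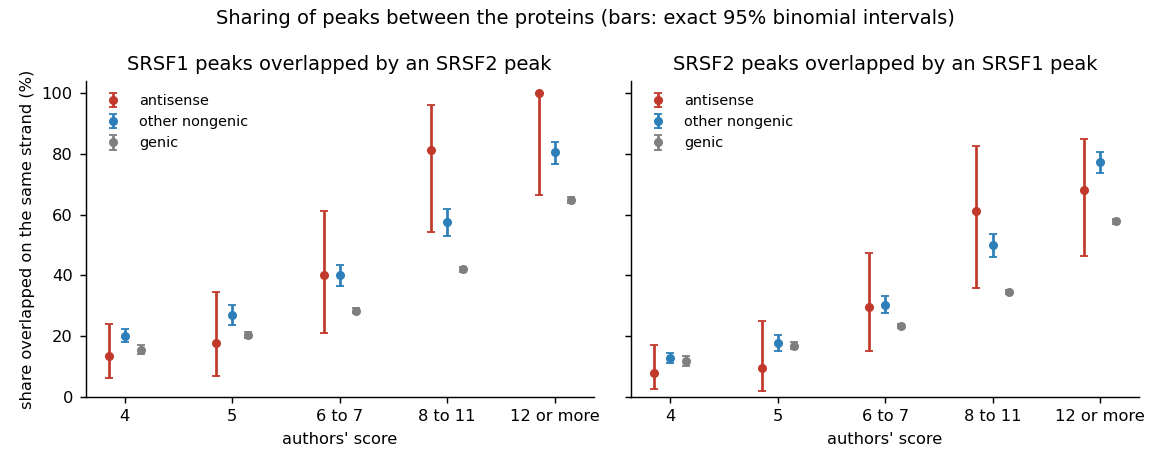
Share of peaks (%) overlapped on the same strand by a peak of the other protein, by class of the authors' score, for SRSF1 peaks (left) and SRSF2 peaks (right); points are shares and bars exact 95% binomial intervals. In all 3 classes of peaks the share climbs with score, and the antisense points go to 100% (9 of 9) for SRSF1 and 68.0% (17 of 25) for SRSF2 at scores of 12 or more.

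The overlaps formed 47 pairs of 1 SRSF1 and 1 SRSF2 antisense peak, in 40 units. Most pairs had close midpoints, while their ends agreed less often. Their midpoints lay within 10 nt of each other in 44 pairs (93.6%), both ends agreed to within 2 nt in 24, and a pair shared a median of 24 nt. Both ends were identical in 2 pairs, and the largest distance between midpoints was 37.5 nt. An overlap between such narrow peaks already keeps midpoints close, and overlapping pairs of other classes were not measured. SRSF2 had the higher score in 31 pairs, SRSF1 in 8, and 8 were tied; since scores of separate libraries are not on a shown common scale, this is a count and no measure of relative binding. Both scores were 10 or more in 13 pairs.

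The 5 pairs with the highest smaller score begin with the chromosome 19 site above (34 for SRSF1, 36 for SRSF2). The second is on the minus strand at chr11:61912265-61912292, where both proteins have exactly the same ends and scores of 22 for SRSF1 and 19 for SRSF2. The third is on the plus strand at chr2:163468425-163468460, with 21 for SRSF1 and 17 for SRSF2. These sites lie in unnamed units whose sense peaks are numerous: 24 of SRSF1 and 36 of SRSF2 around the chromosome 11 site, and 10 of SRSF1 and 16 of SRSF2 around the chromosome 2 site. The fourth, at chr13:44964945-44965006 on the minus strand, is wide, with 62 nt in common, and scored 16 for SRSF1 and 32 for SRSF2. The fifth, at chr11:108358079-108358113 on the minus strand, scored 15 for SRSF1 and 25 for SRSF2.

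**Figure D3:**
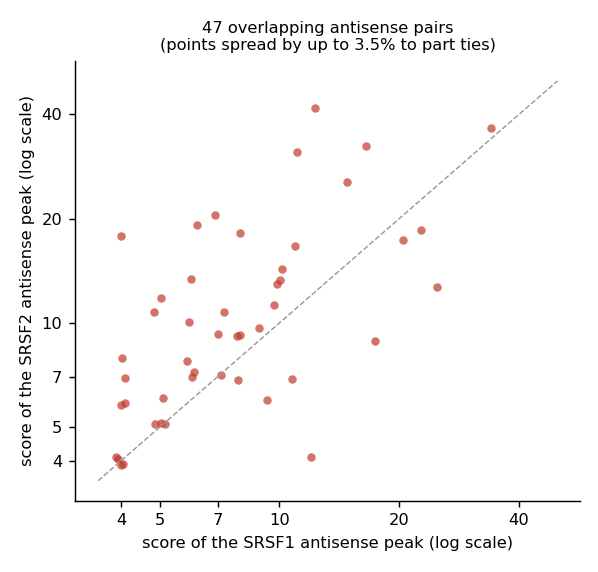
Score of the SRSF1 antisense peak (x axis, log scale) against that of the overlapping SRSF2 antisense peak (y axis, log scale) for the 47 pairs; the dashed line marks equal scores and points are moved slightly apart where they tie. SRSF2 lies higher in 31 pairs, SRSF1 in 8, and the chromosome 19 site (34 and 36) stands at the upper right.

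Antisense peaks came in small groups. Of the 325, 173 (53.2%, interval 47.6 to 58.8%) had another antisense peak of either protein with its midpoint within 500 nt on the same strand, against 66.1% of other nongenic peaks (65.1 to 67.1%) measured the same way. Within one list the shares were 26.5% for SRSF1 (19.6 to 34.3%) and 29.3% for SRSF2 (22.7 to 36.7%), against 42.5% and 46.6% of other nongenic peaks. Antisense peaks were thus less grouped with their own class than other nongenic peaks were, beyond counting error in both lists. Only neighbours of the same class were counted, and the antisense class holds fewer peaks. An antisense peak beside another nongenic peak alone therefore counts as not grouped. Chained at gaps of up to 500 nt, the 325 peaks made 219 groups. Of these, 152 were single peaks, 48 had 2 peaks, of which 35 had 1 of each protein, and 19 had 3 or more. Peaks of both proteins stood in 51 groups, SRSF1 alone in 77 and SRSF2 alone in 91.

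The largest group had 7 peaks, 2 of SRSF1 and 5 of SRSF2, on the plus strand at chr11:3059574-3059994. It includes the widest antisense peak, an SRSF2 peak of 123 nt and score 18, over an SRSF1 peak of 69 nt and score 8. The unit opposite had only 6 sense peaks, 4 of SRSF1 and 2 of SRSF2, so it carried more antisense than sense peaks; 3 other units did so too, among them Gdnf. Next came 3 groups of 6 peaks. The group at chr13:44964944-44965432 had 1 SRSF1 and 5 SRSF2 peaks, the wide pair named above among them. The group at chr2:163468425-163468939 had 3 peaks of each protein, in 3 pairs. The group opposite Laptm4b had 2 SRSF1 and 4 SRSF2 peaks. Of 3 groups of 5 peaks, the one with the highest score, 14, had 3 SRSF1 and 2 SRSF2 peaks within 159 nt at chr2:73705930-73706088. The 5 groups described were compact runs in which both proteins appeared.

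In all, 193 units had an antisense peak opposite, and they had long spans with many sense peaks, though few per length. Of these, 116 had 1 antisense peak, 53 had 2 and 24 had 3 or more, to a highest number of 7. Antisense peaks of both proteins lay opposite 60 units, of SRSF1 alone opposite 60 and of SRSF2 alone opposite 73. The median span was 45582 nt and the median number of sense peaks 14, against 18678 nt and 7 over all 7141 units with 2 or more peaks. Per 10 kb of span the median was 2.76 sense peaks in these units, against 5.07 over all. Sense peaks of both proteins were present in 183 of the 193 (94.8%, interval 90.7 to 97.5%), against 88.2% of all such units. A longer span has more room opposite it. The share of units with an antisense peak was 0.782% for spans up to 10 kb, 2.78% from 10 to 50 kb, 3.81% from 50 to 100 kb, 6.21% from 100 to 200 kb and 10.1% above 200 kb. Per megabase of span the order was the reverse, with 3.08 antisense peaks in the shortest class and 0.499 in the longest.

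Only 29 of the 193 units have a gene name, which is 1.34% of the 2169 named units (0.897 to 1.91%), and 54 antisense peaks lay opposite them, 21 of SRSF1 and 33 of SRSF2. The 2169 include units with 1 peak, whose span leaves little room for an antisense peak. Units with a gene accession and 2 or more peaks numbered 1681. The genes below are all those with 2 or more antisense peaks.

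Among secreted signals, Bmp4 encodes a bone morphogenetic protein, a ligand of the TGF-beta family. On the minus strand at chr14:47005732-47010125 it had 4 SRSF1 sense peaks and 1 SRSF2 sense peak, and opposite it lay 3 SRSF1 peaks of score 4 and 2 SRSF2 peaks of scores 4 and 5. None of the 5 was shared between the proteins. Gdnf encodes a neurotrophic factor that signals through the Ret receptor. It had 2 SRSF1 sense peaks and 0 SRSF2 sense peaks, at the ends of its span at chr15:7761088-7787291, and 4 SRSF2 antisense peaks of scores 4, 5, 4 and 5 in between. Gdnf was thus listed with SRSF1 on the sense strand and with SRSF2 on the antisense strand, all at low scores.

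Among genes of membranes and vesicle traffic, Laptm4b encodes a transmembrane protein of lysosomes. Its plus-strand span at chr15:34168064-34213137 held 7 SRSF1 and 3 SRSF2 sense peaks. Opposite lay SRSF1 peaks of scores 5 and 11 and SRSF2 peaks of scores 10, 6, 7 and 17, in a run of 707 nt. The SRSF1 peak of score 11 and the SRSF2 peak of score 17 covered the same 26 nt, and the nearest sense peak was 3563 nt away. Appl2 encodes an adaptor of early endosomes. Its minus-strand span at chr10:83062826-83103791 held 25 SRSF1 and 15 SRSF2 sense peaks, and opposite were 1 SRSF1 peak of score 5 and 5 SRSF2 peaks of scores 4, 4, 6, 4 and 6. Of the 6 Appl2 antisense peaks, 3 had their midpoint 6, 14.5 and 22 nt from a sense peak, and the other 3 were 2364, 2716.5 and 2768 nt from one. Tspan5, a tetraspanin that guides the protease ADAM10, had 5 SRSF1 and 4 SRSF2 sense peaks along chr3:138405534-138567186. One shared antisense site there, at chr3:138507725-138507758, scored 17 for SRSF1 and 9 for SRSF2. Adam10 itself had 1 SRSF1 antisense peak of score 4. Tmem39a, a membrane protein of the endoplasmic reticulum, had 1 shared antisense site with 8 for SRSF1 and 7 for SRSF2. Adgra2, an adhesion receptor needed for brain vessel growth, had SRSF1 antisense peaks of scores 6 and 5 and none of SRSF2. Slc25a24, a mitochondrial carrier of adenine nucleotides, had SRSF1 antisense peaks of scores 4 and 5, which were 28 and 30.5 nt from the nearest sense peak.

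Among genes of nuclear import, protein targeting and lipid modification, Kpnb1 encodes importin beta 1, the receptor that carries proteins with a nuclear signal through the pore. It was densely bound, with 20 SRSF1 and 28 SRSF2 sense peaks along chr11:97022786-97049132 on the minus strand. Its 3 antisense peaks, 1 of SRSF1 and 2 of SRSF2, all had score 5 and lay close to the 5′ end of the span, 249.5 to 406.5 nt from the nearest sense peak. Srp68, a subunit of the signal recognition particle, had 1 shared antisense site with score 5 in both lists. Fntb, the beta subunit of protein farnesyltransferase, had 1 shared site with 5 for SRSF1 and 12 for SRSF2. Across these 11 genes, shared sites were thus found opposite Laptm4b, Tspan5, Tmem39a, Srp68 and Fntb. The other 18 named genes had 1 antisense peak each, at scores of 4 to 6 except for Ccz1, part of the complex that activates Rab7, whose SRSF2 antisense peak scored 15.

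**Figure D4:**
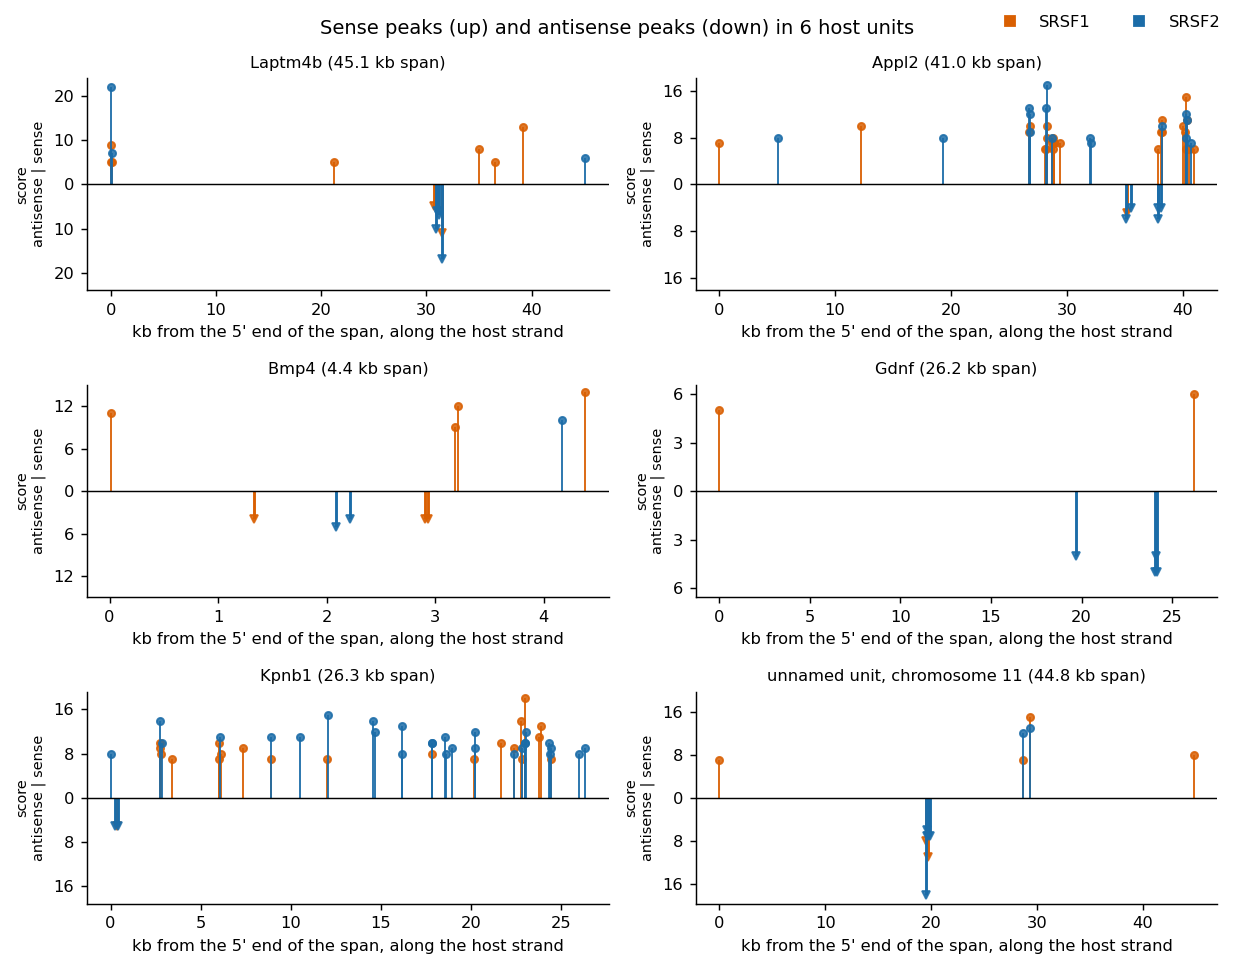
Sense peaks (upwards) and antisense peaks (downwards) of SRSF1 and SRSF2 along 6 units, by distance in kb from the 5′ end of the span and by the authors' score. The antisense peaks form a tight run opposite Laptm4b and the unnamed chromosome 11 unit, stand in 2 places opposite Appl2, of which 1 is close to sense peaks, and near the 5′ end opposite Kpnb1, and are weak opposite Bmp4 and Gdnf.

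The named genes could be looked up in a mouse annotation of another build (GENCODE vM21 on GRCm38), used only for which genes overlap each other. Of the 29 genes, 21 (72.4%, interval 52.8 to 87.3%) had a gene annotated on the opposite strand over part of their body. The comparison covered 1635 of the 2169 named units, all 29 among them. In the 1606 compared genes without an antisense peak the share was 39.6% (37.2 to 42.0%). Genes with antisense peaks were thus more often overlapped by an annotated opposite gene, beyond counting error. Their spans were also longer, with a median of 34439 nt against 11684.5 nt. Within the middle 50% of the 29 genes' spans, a restriction of both groups added after the data were seen, 11 of 15 genes with antisense peaks (73.3%, 44.9 to 92.2%) and 194 of 493 without (39.4%, 35.0 to 43.8%) were overlapped, at median spans of 34439 nt and 22394 nt, so a gap in span remained. By kind of opposite gene, 11 of the 29 had a protein-coding gene (37.9%, 20.7 to 57.7%, against 20.9%), 8 a long noncoding RNA (27.6%, 12.7 to 47.2%, against 13.2%), 3 a pseudogene (10.3%, 2.19 to 27.4%, against 6.54%) and 3 a small RNA (10.3%, 2.19 to 27.4%, against 3.74%). For each kind taken singly, the intervals overlapped. Kpnb1 and Tmem39a are overlapped by the long noncoding RNAs Gm11583 and Gm17103, and Bmp4 by the long noncoding Gm15222 and the protein-coding Gm15217. Fntb is overlapped by Gpx2 and Rab15, and Adgra2 by Brf2. Laptm4b and Tspan5 are overlapped by the pseudogenes Gm18949 and Gm16060; a pseudogene can resemble other genes closely, so the origin of reads there is uncertain. Appl2, Gdnf, Srp68 and Slc25a24 had none annotated opposite. Whether the peaks themselves lie in these opposite genes was not tested.

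Gene groups of interest had no antisense peaks among their named members. Of 10 genes known for an antisense RNA, 2 were named with a peak (Igf2r and Kcnq1) and 0 had an antisense peak. The same was 0 of 8 named of 24 splicing factors, 0 of 6 named of 12 extracellular matrix genes, and 0 of 5 named of 12 actin cytoskeleton genes. With 1.34% of named units having one, counts of 0 in lists of 2 to 8 genes tell little, and most units carry no gene name.

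Within their units, antisense peaks lay along the whole span. With each span cut into 3 equal parts from its 5′ end, the parts held 28.9%, 28.9% and 42.2% (interval 36.7 to 47.7%) of antisense peaks, against 31.9%, 27.4% and 40.7% of the same units' sense peaks that do not bound the span. Each antisense interval contained the sense share, so no difference in position was detectable. The median distance from an antisense peak to the nearest sense peak was 1845.5 nt for SRSF1 and 2336 nt for SRSF2. Within 500 nt of a sense peak were 46 SRSF1 antisense peaks (30.5%, 23.2 to 38.5%) and 33 SRSF2 antisense peaks (19.0%, 13.4 to 25.6%), with intervals that overlap. Of the 325, 14 (4.31%, 2.37 to 7.12%) shared a nucleotide position with a sense peak, 9 of SRSF1 and 5 of SRSF2. The 5 strongest of these were an SRSF2 peak of score 13 and an SRSF1 peak of score 10 at 1 site, chr5:122909505-122909528 on the plus strand, and plus-strand peaks of score 7 (SRSF1, chr2:26241111-26241130), 6 (SRSF1, chr17:44872467-44872488) and 6 (SRSF2, opposite Appl2, chr10:83065882-83065899). Another SRSF1 peak at chr3:30406654-30406672 tied at score 6. Most antisense peaks thus did not meet a sense peak, but sense peaks are sparse in these spans, at a median of 2.76 per 10 kb. How many would meet by position alone was not measured, so the count does not show whether meeting was rare or frequent.

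On their own strand, antisense peaks were far from genic peaks. The rule that chose them bears on this distance. They lie inside spans of the other strand, where only 134 of 98196 genic peaks (0.136%) lay. The nearest genic peak of the same strand was a median 52519.5 nt away for SRSF1 and 64695.5 nt for SRSF2, against 28121.5 nt and 30433 nt for other nongenic peaks. A genic peak within 5 kb upstream was present for 20 SRSF1 antisense peaks (13.2%, 8.28 to 19.7%) and 13 SRSF2 antisense peaks (7.47%, 4.04 to 12.4%). For other nongenic peaks the shares were 18.4% (17.2 to 19.6%) and 19.0% (17.9 to 20.2%). The upstream share of SRSF2 antisense peaks was lower beyond counting error, and the SRSF1 intervals overlapped. Within 5 kb downstream a genic peak was present for 4 SRSF1 antisense peaks (2.65%) and 1 SRSF2 antisense peak (0.575%). For other nongenic peaks the downstream shares were 8.37% and 9.63%. Whether antisense peaks lie in RNA running on past the listed end of a gene was not tested.

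Opposite-strand nongenic peaks changed sharply in number at the 5′ border of the spans. Over all 7141 units with 2 or more peaks, the first 1 kb inside the 5′ end held 11 opposite-strand nongenic peaks of SRSF1 and 12 of SRSF2, which is 1.65 and 1.80 per megabase. The 1 kb just outside it held 155 of SRSF1 and 152 of SRSF2, or 21.7 and 21.3 per megabase. Further out the density fell to 7.84 for SRSF1 and 9.80 for SRSF2 at 1 to 2 kb and to 2.80 and 3.78 at 4 to 5 kb. At the 3′ end the last 1 kb inside held 16 peaks of each protein (2.40 per megabase) and the first 1 kb outside 31 of each (4.34 per megabase). Opposite-strand nongenic peaks were thus concentrated just before the first listed peak of a unit, outside the bounds by which antisense peaks were chosen. Those of the first 1 kb outside stood before 154 of the 7141 units, so this is not a feature of most units. Opposite-strand peaks with a genic name were not counted, so this is not all reverse-strand binding. The span end is the first listed peak, not a mapped transcription start. In the outside zone 29.0% of SRSF1 peaks (22.03 to 36.9%) and 30.3% of SRSF2 peaks (23.1 to 38.2%) were overlapped by the other protein, within the intervals of the antisense peaks inside the spans.

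**Figure D5:**
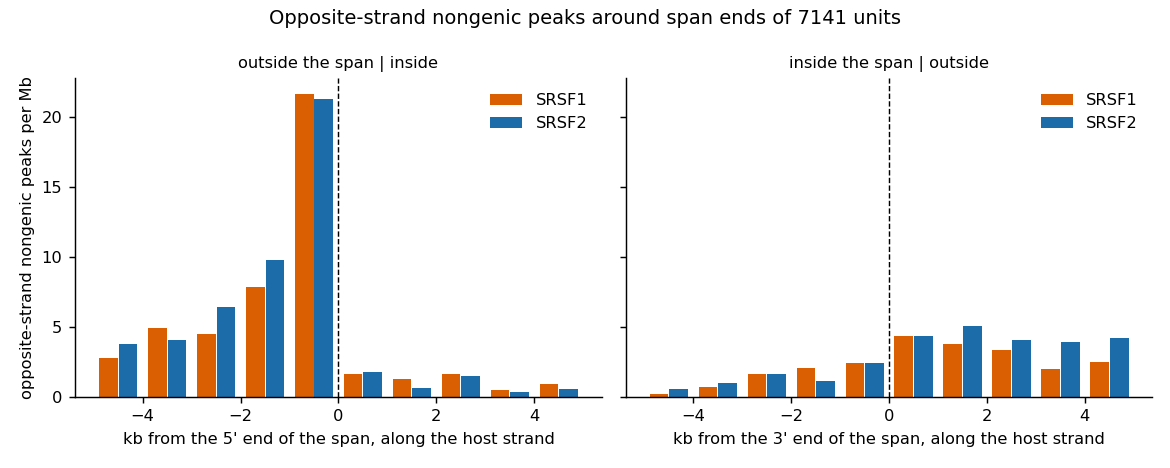
Opposite-strand nongenic peaks per megabase in 1 kb bins around the 5′ end (left) and the 3′ end (right) of the spans of 7141 units, by distance in kb along the strand of the unit; the dashed lines mark the span ends. The bin just outside the 5′ end stands at 21.7 per megabase for SRSF1 and 21.3 for SRSF2, and the bin just inside it at 1.65 and 1.80.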

How the data were processed

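For the SRSF1 and the SRSF2 library the authors deposited 1 peak list each, with coordinates, a name, a score and a strand; the build is mm9 per the submitters' processing notes. The deposited score is a whole number whose definition, like the aligner, the peak caller, its threshold and the pooling of runs, was not given in the sources used here. Coordinates are given 1-based. Peaks of the mitochondrial chromosome (13 nongenic for SRSF1, 22 for SRSF2) were left out. Spans, antisense peaks, overlaps and distances between midpoints were computed with Python 3.11.15, pandas 2.3.3 and SciPy 1.17.1, tested on simulated data and checked with bedtools 2.31.1, which gave the same 151 and 174 antisense peaks; figures used matplotlib 3.10.9. With 1 library per protein no p-value was computed. Named are genes with 2 or more antisense peaks, the 5 highest scores per list, the 5 strongest pairs, the 5 largest groups, the 5 strongest peaks that meet a sense peak, and listed genes. Adam10, Ccz1 and the upstream units were named after their values were seen. The members and lists were chosen with earlier results of these data known. The results were recomputed under 15 alternative settings. An mm9 genome and annotation were not used here, so sequences and exon positions are not shown.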

Additional observations from a re-analysis of the deposited data

How the results depend on the processing

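Of 102 values recomputed under alternative settings, 69 stayed close to the value reported (within its interval, where it has one), 31 moved and 2 changed sign. Spans longer by 1 kb at both ends gave antisense shares of 8.93% for SRSF1 and 7.52% for SRSF2, 389 units, 60.2% of antisense peaks grouped within 500 nt and 38.3% within 500 nt of a sense peak. They turned the difference in density between antisense and other nongenic peaks to 0.332 per megabase for SRSF1, from a reported difference of -0.332, and to 0.190 for SRSF2, where it was -0.453; this setting was added for density after seeing the data. Spans drawn from the same protein gave shares of 2.71% and 2.78% and 43.3% grouped. The upper 50% of each list by score (8 or more) gave shares of 1.43% and 1.67%, median scores of 10 and 13, overlap with the other protein of 73.3% and 50%, 22 units, 67.6% grouped and 10.8% near a sense peak. Units with a gene accession alone gave shares of 0.522% and 0.665%, overlap of 23.8% and 15.2%, 29 units, 59.3% grouped and 35.2% near a sense peak. Keeping 1 antisense peak per unit and list, chosen after seeing the data, gave shares of 2.98% and 2.68% and 36.4% grouped. Distances of 100 nt and 5000 nt gave 40.6% and 60.6% grouped and 12% and 70.5% near a sense peak. Leaving out chromosome 2, which held more antisense peaks than any other chromosome (38 of 325), moved none of the results it was run on. No paired analysis was possible because each protein has 1 library. A span ends at a listed peak, so antisense peaks beyond the outermost peaks of a gene are missed, and a gene with 1 peak has no room for any. Read depth is unknown, and a peak missing from a list does not show that the protein was absent.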

Other observations

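Just outside the 5′ ends, 307 opposite-strand nongenic peaks stood within 1 kb of 154 of the 7141 units with 2 or more peaks. Of the 154, 48 had a gene name, 45 had such peaks of both proteins there, and 11 had 5 or more such peaks. These peaks are not antisense peaks by the rule used above. The largest numbers were 11 peaks (5 of SRSF1, 6 of SRSF2) at chr4:88940817-88941083 and 11 peaks (2 of SRSF1, 9 of SRSF2) at chr11:84684444-84685058, both on the plus strand and before unnamed units. Among named genes, Tbc1d22a, which encodes a TBC domain protein, had 9 (2 of SRSF1, 7 of SRSF2), with scores of up to 10. Sacm1l, a phosphoinositide phosphatase of the endoplasmic reticulum, had 5 (3 of SRSF1, 2 of SRSF2) with scores of up to 43, higher than any antisense peak inside a span. Dpp7, a lysosomal peptidase, had 2 of SRSF1 and 3 of SRSF2. Lasp1, an actin-binding protein, and Rragc, a small GTPase of the mTORC1 pathway, each had 4 of SRSF1 and 1 of SRSF2. Polr2e, a subunit shared by the nuclear RNA polymerases, had 4 of SRSF1 and 0 of SRSF2. Kpnb1, which also had 3 antisense peaks inside its span, had 1 of each protein. Most of these gene-level counts are of 5 peaks or fewer.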
